A study of Mus musculus with 6 samples.

Results

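The mitosis and G2/M genes are the 43 genes of mitotic cyclins and kinases, the spindle checkpoint, the kinetochore, spindle motors and cytokinesis that were listed by symbol for this comparison. All 43 were matched by symbol in a count table of 23420 gene symbols, and all 43 were among the 13682 genes with enough counts to be tested. The libraries came from splenic B lymphocytes of 3 Ahr+/+ and 3 Ahr-/- mice on a C57Bl/6J background, where Ahr-/- is the tm1Bra allele, a null of the aryl hydrocarbon receptor (AhR) in every cell of the animal and not only in B cells. Per the study's methods the mice were adult and matched for age and gender, and B cells were isolated with a negative selection kit, which leaves a minority of other cells. Both genotypes received 20 ng/ml IL-4 and 10 μg/ml α-IgM, a stimulus of the B-cell receptor (BCR), during a culture of 8 h, and the AhR ligand FICZ was added at 250 nM for the last 4 h. No unstimulated or ligand-free culture was used here, so each comparison is Ahr-/- against Ahr+/+ under one stimulus and at one time.

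A resting B cell that is stimulated through its BCR leaves G0, copies its DNA in S phase and then switches on the genes of G2 and mitosis. These genes are transcribed in waves, being held down in resting and G1 cells by the DREAM complex and raised in G2 by the MuvB core together with the B-Myb protein (Mybl2) and Foxm1. Many of their promoters carry a CHR element, a short sequence next to the transcription start that MuvB binds, with CCAAT boxes upstream that bind NF-Y. Their mRNAs are therefore widely used as a measure of how many cells in a culture are cycling.

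Each Ahr+/+ library held between 34402709 and 40065169 counts and each Ahr-/- library between 22095096 and 53648787. The members took between 0.0247% and 0.034% of them. Ahr, the targeted gene, was lower in each Ahr-/- library (log2 fold change -0.52, standard error 0.05, adjusted p = 7.1e-06 from edgeR) but not absent. The files count reads per gene, and which exons of Ahr they cover cannot be read from them. Cyp1a1, the main target of ligand-bound AhR, had 4973 to 5437 normalized counts in the Ahr+/+ and 2.84 to 6.87 in the Ahr-/- libraries. The B-cell markers Cd79a, Cd79b, Ms4a1, Cd22, Pax5, Blk and Fcer2a were all abundant, with mean normalized counts from 1736 for Pax5 to 24960 for Cd79b. Of these, Cd79a, Cd79b, Ms4a1, Pax5 and Fcer2a were higher in Ahr-/- libraries, although Fcer2a was not called with edgeR's robust fit. The germinal centre markers Mybl1, S1pr2, Gcsam and Mef2b were lower, and Bcl6 and Rgs13 were not called. The mitosis and G2/M genes are expressed by any dividing cell, B cell or not. In bulk RNA, fewer cells of a type and less RNA per cell cannot be told apart.

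After 8 h of stimulation, 4 of the 43 mitosis and G2/M genes were lower in Ahr-/- B cells and none was higher (adjusted p under 0.05, edgeR's quasi-likelihood test, adjusted over all 13682 genes). The 4 genes were Pttg1, Kif23, Racgap1 and Nek2, of which Pttg1 fell by 36.9% and Nek2, at the other end, fell by 51.6%. Kif23 and Racgap1 encode the subunits of centralspindlin, the complex that bundles the midzone microtubules at cytokinesis. The count of 4 is 9.3% of the members. Over all genes tested, 17.9% were called in either direction and 8.13% were called lower in Ahr-/- cells, so the share of members called was below the background in either direction and close to it in the lower direction. At an unadjusted p under 0.05 there were 6 of the 43 members and 4020 of the 13682 genes tested. DESeq2 called the same 4 members, Pttg1, Kif23, Racgap1 and Nek2.

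The median log2 fold change of the members was -0.09, beside 0.00 over all genes tested. It was -0.22 without Ahr+/+ replicate 1 and 0.02 without Ahr+/+ replicate 2, so neither its sign nor the counts of signs hold without each library. With all 6 libraries a value below 0 was found for 29 members and one above 0 for 14. The values ran from -1.05 for Nek2 to 0.30 for Mybl2. The standard errors of the members, with a median of 0.15, were larger than the median of 0.07 over all genes, and their counts were lower (median of the mean normalized counts 197.6 against 773.6). The 3 libraries of one genotype did not overlap those of the other for 7 members, 5 lower and 2 higher in Ahr-/- cells. This is 16.3% of the members, against 33.5% of all genes tested.

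**Figure D1:**
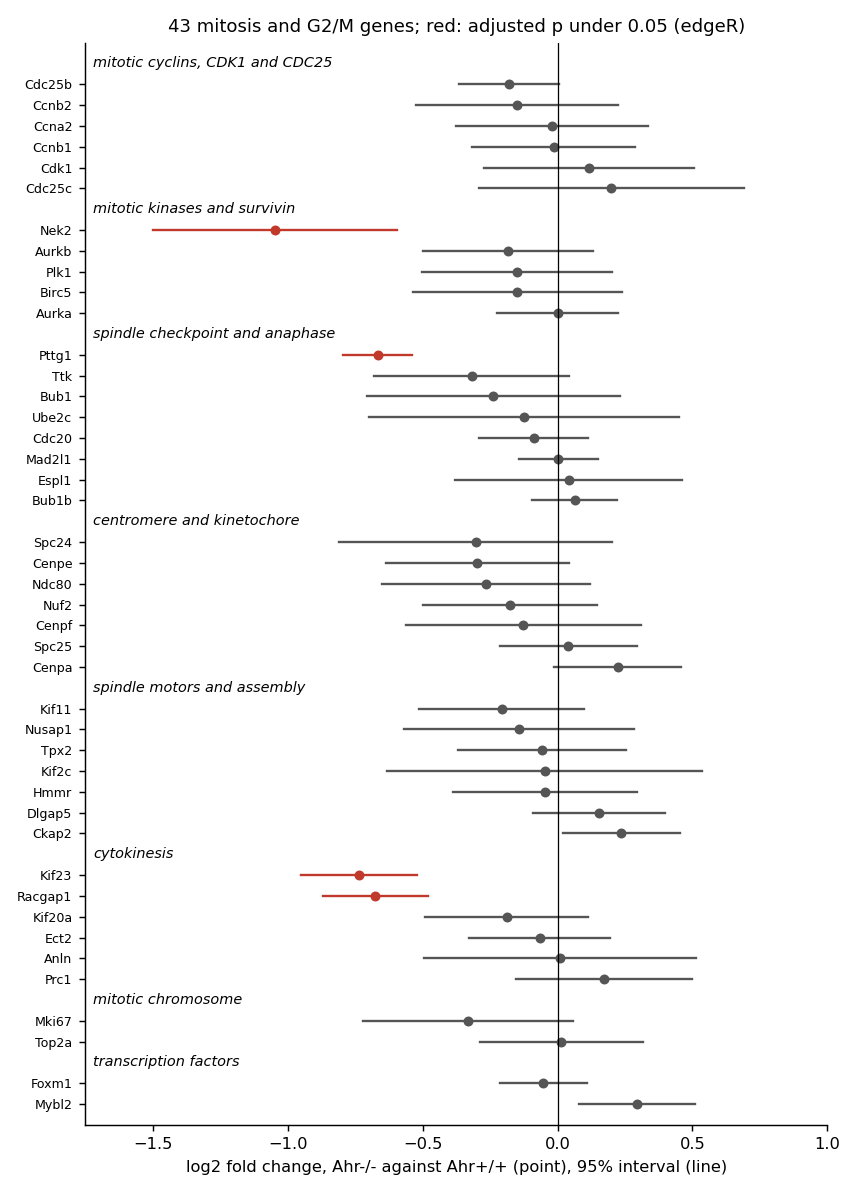
Log2 fold change of each of the 43 genes in Ahr-/- against Ahr+/+ B cells (x axis, points) with its 95% interval (lines), grouped by role. The 4 genes in red, Pttg1, Kif23, Racgap1 and Nek2, have an adjusted p under 0.05 and lie at -0.67 or lower, while the intervals of the other members all stay within 2-fold.

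The promoters of the 4 genes that fell are given here, since genes of G2 and mitosis are controlled there, with those of Plk1 and Ccnb1, which were not called, for contrast. A RefSeq promoter (GRCm38.p6, 250 bases before to 50 after the annotated start) was found for 35 of the 43 members. The RefSeq sequences were searched on both strands for the CHR hexamer TTTGAA, for the CCAAT box CCAAT and for GCGTG, the core of the dioxin response element bound by AhR. In the lines below, written 5′ to 3′ on the strand of the gene, capitals mark these matches, and a match on the opposite strand appears as its reverse complement. In each line the start of the RefSeq transcript is the base after base 250. For 31 of the 37 member promoters this start lay within 50 bases of the outermost GENCODE start of the gene, but for Pttg1 and Kif2c it lay 270 and 3867 bases inside the gene, so that neither window, nor the printed line of Pttg1, holds sequence upstream of the outermost start.
Kif23: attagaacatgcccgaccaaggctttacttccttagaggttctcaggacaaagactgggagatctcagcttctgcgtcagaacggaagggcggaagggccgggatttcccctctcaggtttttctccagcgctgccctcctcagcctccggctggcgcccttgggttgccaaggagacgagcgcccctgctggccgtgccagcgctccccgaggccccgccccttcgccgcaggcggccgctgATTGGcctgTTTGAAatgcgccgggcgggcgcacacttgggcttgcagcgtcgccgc
Racgap1: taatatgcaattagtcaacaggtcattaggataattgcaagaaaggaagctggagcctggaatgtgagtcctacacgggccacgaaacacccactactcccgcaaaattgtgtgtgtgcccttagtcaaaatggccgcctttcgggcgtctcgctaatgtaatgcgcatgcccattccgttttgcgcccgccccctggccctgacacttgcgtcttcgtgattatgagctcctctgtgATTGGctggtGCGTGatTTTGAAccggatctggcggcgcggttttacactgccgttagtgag
Nek2: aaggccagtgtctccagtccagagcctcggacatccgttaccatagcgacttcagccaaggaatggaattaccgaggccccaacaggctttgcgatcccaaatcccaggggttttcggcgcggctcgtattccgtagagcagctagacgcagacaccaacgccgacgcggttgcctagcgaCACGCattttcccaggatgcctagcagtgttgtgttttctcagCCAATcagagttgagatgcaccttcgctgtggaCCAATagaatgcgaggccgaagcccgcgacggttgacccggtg
Pttg1: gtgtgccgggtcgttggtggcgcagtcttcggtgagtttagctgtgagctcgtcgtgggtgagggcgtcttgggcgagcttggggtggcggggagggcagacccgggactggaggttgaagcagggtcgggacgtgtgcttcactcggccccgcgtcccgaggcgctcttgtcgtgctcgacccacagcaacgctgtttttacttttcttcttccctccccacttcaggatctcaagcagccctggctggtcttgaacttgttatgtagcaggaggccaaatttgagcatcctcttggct
Plk1: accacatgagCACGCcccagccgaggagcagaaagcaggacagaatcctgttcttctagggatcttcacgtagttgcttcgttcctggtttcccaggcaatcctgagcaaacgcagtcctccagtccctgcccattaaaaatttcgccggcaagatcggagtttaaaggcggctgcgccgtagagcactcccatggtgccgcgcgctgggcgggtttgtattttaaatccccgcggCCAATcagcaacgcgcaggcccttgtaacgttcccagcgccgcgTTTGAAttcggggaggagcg
Ccnb1: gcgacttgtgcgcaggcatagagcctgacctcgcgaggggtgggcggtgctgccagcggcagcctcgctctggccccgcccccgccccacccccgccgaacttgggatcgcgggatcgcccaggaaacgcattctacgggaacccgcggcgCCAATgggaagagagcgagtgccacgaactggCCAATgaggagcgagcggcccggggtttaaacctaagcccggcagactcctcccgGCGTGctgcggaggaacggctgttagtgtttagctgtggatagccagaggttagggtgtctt

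These stretches lie at chr9:61946750-61947049 (Kif23, minus strand), chr15:99651607-99651906 (Racgap1, minus), chr1:191821223-191821522 (Nek2, plus), chr11:43425932-43426231 (Pttg1, minus), chr7:122159185-122159484 (Plk1, plus) and chr13:100786437-100786736 (Ccnb1, minus). Kif23 and Racgap1, the centralspindlin pair, have the same arrangement, a CCAAT box on the opposite strand beginning 7 and 12 bases before the start, followed by TTTGAA at bases 3 and 6 after it. Racgap1 also has GCGTG between them. Nek2 has CCAAT at 26 bases before and 8 bases after the start and GCGTG 69 bases before it, on the opposite strand, but no TTTGAA. The Pttg1 line has no match, and since it lies within the gene as annotated by GENCODE this says nothing about sequence upstream of the gene. The arrangement is not particular to them. Among members that were not called, Hmmr, Espl1, Cdk1 and Cenpa also have a CCAAT box on the opposite strand followed by TTTGAA, and Plk1 has the pair with its CCAAT box on the strand of the gene, and Ccnb1 has a pair of CCAAT boxes and GCGTG.

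The cytokinesis genes held 2 of the 4 changed members. Kif23 (also called MKLP1), the kinesin subunit of centralspindlin, lies at chr9:61915905-61946774 (GRCm38, minus strand). Its normalized counts (counts scaled to a common library size) were 362.3, 441.7 and 400.9 in Ahr+/+ replicates 1 to 3 and 259.2, 250.2 and 217.9 in Ahr-/- replicates 1 to 3. The lowest Ahr+/+ library was thus above the highest Ahr-/- library. The means were 401.6 ± 39.7 and 242.4 ± 21.7 (SD, n = 3 mice), which gives a log2 fold change of -0.74 with a standard error of 0.10 (adjusted p = 0.0002, edgeR).

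Racgap1, the GTPase-activating subunit that pairs with Kif23, lies at chr15:99620496-99651656 (GRCm38, minus strand). The Ahr+/+ libraries had 689.6, 875.3 and 810.9 normalized counts, and the Ahr-/- libraries 473.7, 537.4 and 466.8. Again no library of one genotype overlapped the other. The mean fell from 791.9 ± 94.3 to 492.6 ± 38.9 (SD, n = 3 mice), and the log2 fold change was -0.68 with a standard error of 0.09 (adjusted p = 0.00017, edgeR). A processed pseudogene, AC148020.1, shares 488 aligned bases with Racgap1 at 98.2% identity, so reads of those bases may have been counted on either or dropped.

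The other cytokinesis genes were not called. Ect2, the guanine nucleotide exchange factor that centralspindlin recruits, had a log2 fold change of -0.07 (95% interval -0.33 to 0.20). Prc1, which cross-links the same midzone microtubules, had 0.17 (-0.15 to 0.50), and Kif20a (MKLP2), a further midzone kinesin, had -0.19 (-0.49 to 0.11). Anln, an actin-binding scaffold of the cleavage furrow, had 0.01 (-0.50 to 0.51) and the lowest level of all members per kilobase of exon. The intervals of Ect2, Prc1, Kif20a and Anln did not reach the point values of Kif23 and Racgap1, but the differences between genes were not tested. The genomic positions of Prc1 and Kif20a overlap other annotated genes, Rccd1 and Cdc23, with which they share 670 and 979 identical transcript bases.

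Of the spindle checkpoint and anaphase genes, 1 of 8 was called. Pttg1 encodes securin, which holds separase inactive until the anaphase-promoting complex (APC/C) degrades it, and lies at chr11:43420250-43426251 (GRCm38, minus strand). It had 1059, 1120 and 1067 normalized counts in Ahr+/+ cells and 739.7, 670.3 and 651 in Ahr-/- cells. The Ahr+/+ libraries lay close together and all above the Ahr-/- libraries. The mean fell from 1082 ± 33.2 to 687 ± 46.7 (SD, n = 3 mice), a log2 fold change of -0.67 with the smallest standard error of the members (0.06) and the smallest adjusted p (5.3e-06, edgeR). Pttg1 was also the most abundant member per kilobase of exon in both genotypes, with 541 and 343.5 normalized counts per kilobase, ahead of Cdc20, the APC/C activator, with 204.7 and 192. No other annotated gene overlaps it.

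The partner of securin was not called. Espl1, separase itself, had 108.8, 198.2 and 139.3 normalized counts in the Ahr+/+ and 171.6, 159.2 and 132.2 in the Ahr-/- libraries. The genotypes overlapped fully, with a log2 fold change of 0.04 (95% interval -0.38 to 0.46). Mad2l1, the checkpoint protein that inhibits Cdc20, had 528.4, 558.4 and 554.8 against 568.1, 570.1 and 508.8. It had the narrowest interval of the members that were not called (-0.14 to 0.15 around a log2 fold change of 0.00). The checkpoint kinases Bub1 and Ttk were at -0.24 and -0.32 (adjusted p = 0.51 and 0.23, edgeR), and Bub1b (BubR1) was at 0.06. Cdc20 and Ube2c, the ubiquitin-conjugating enzyme of the APC/C, were at -0.09 and -0.12, also not called.

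The kinases included the member with the largest change. Nek2, which separates the centrosomes at the onset of mitosis, lies at chr1:191821444-191833050 (GRCm38, plus strand). Ahr+/+ libraries had 102, 167 and 112.3 normalized counts and Ahr-/- libraries 70.4, 65.4 and 51.1. The genotypes did not overlap, although replicate 2 stood well above the other two Ahr+/+ libraries. The mean fell from 127.1 ± 35 to 62.3 ± 10 (SD, n = 3 mice), and the log2 fold change was -1.05 with a standard error of 0.21 (adjusted p = 0.0034, edgeR). An antisense gene, Gm38037, shares 298 bases of its exons on the opposite strand, and the sources used here do not give the strand setting of the counting.

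**Figure D2:**
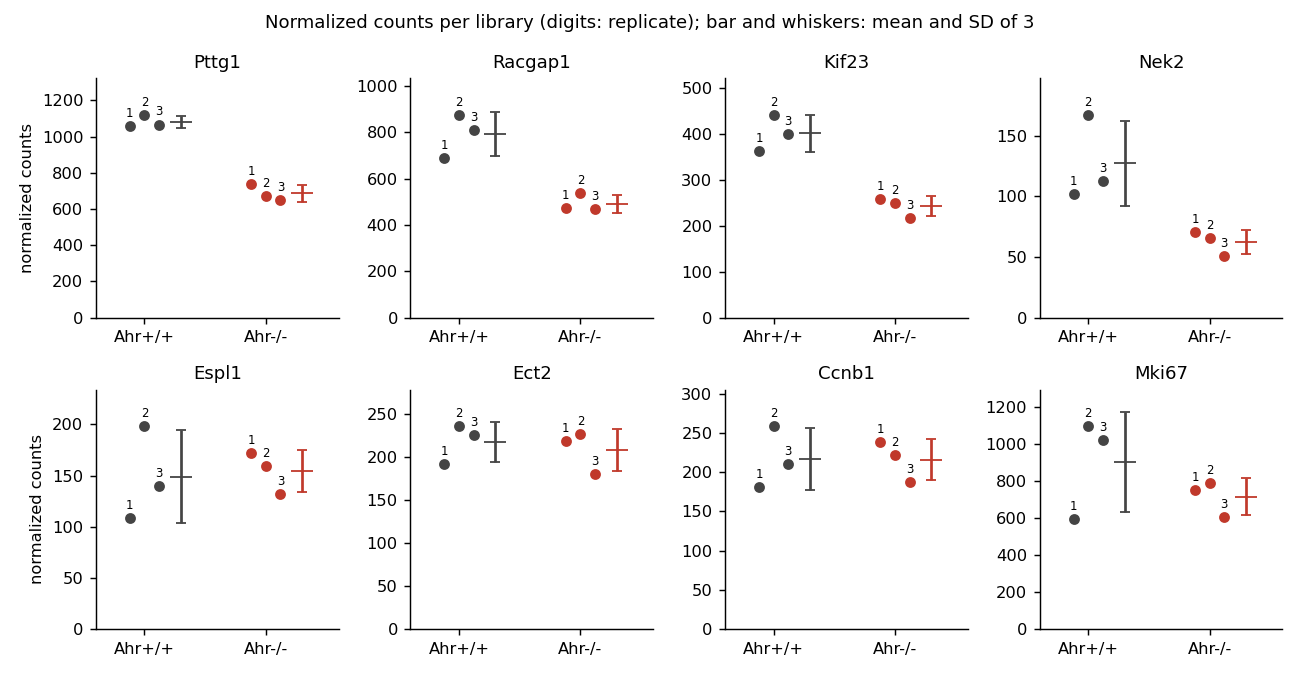
Normalized counts (y axis, from 0) of 8 genes in each of the 3 Ahr+/+ (dark) and 3 Ahr-/- libraries (red), with the replicate number at each point and the mean and SD beside them. Pttg1, Racgap1, Kif23 and Nek2 separate by genotype, whereas Espl1, Ect2, Ccnb1 and Mki67 overlap. Ahr+/+ replicate 1 is the lowest Ahr+/+ library for all 8 genes.

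Plk1, the polo kinase needed for mitotic entry, had 104.9, 151.9 and 117.9 normalized counts in the Ahr+/+ and 104.7, 126.5 and 103 in the Ahr-/- libraries, and the genotypes overlapped (log2 fold change -0.15, standard error 0.16, adjusted p = 0.59 from edgeR). Aurka, which builds the spindle poles, had 246.7, 265.6 and 213.4 against 235.1, 256.6 and 232.5, a log2 fold change of 0.00 (95% interval -0.22 to 0.22). Aurkb, the kinase of the chromosomal passenger complex, had 161.2, 246.5 and 187.6 against 173.3, 179.8 and 170.5. The Aurkb values overlapped, with a log2 fold change of -0.18 (-0.50 to 0.13). Birc5 (survivin), another passenger subunit, was at -0.15 and was not called either.

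None of the mitotic cyclins, Cdk1 and the Cdc25 phosphatases was called. Ccna2, cyclin A2, which serves both S phase and G2, had 169, 256.6 and 239.2 normalized counts in the Ahr+/+ and 221.4, 252.4 and 177.8 in the Ahr-/- libraries. Ccnb1, cyclin B1, which activates Cdk1 at mitotic entry, had 180.7, 258.6 and 210 against 238.6, 222.5 and 186.9. Both overlapped fully, with log2 fold changes of -0.02 (95% interval -0.38 to 0.33) and -0.01 (-0.32 to 0.29). There are 4 pseudogenes that share long near-identical stretches with Ccnb1, so its count is uncertain to that extent.

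Ccnb2, cyclin B2, had 94.2, 138.8 and 116.8 normalized counts in the Ahr+/+ and 101.3, 121.6 and 89.4 in the Ahr-/- libraries, a log2 fold change of -0.15 (standard error 0.17). Cdk1 had 86.5, 140.9 and 115.7 against 123.6, 139.3 and 106.7, a log2 fold change of 0.12 (standard error 0.18). Neither differed beyond the spread between replicates (adjusted p = 0.62 and 0.73 from edgeR). Cdc25b, a phosphatase that activates Cdk1, was lower in all 3 Ahr-/- libraries than in any Ahr+/+ library, but its log2 fold change of -0.18 did not pass the adjusted test (adjusted p = 0.18 from edgeR). Cdc25c, the least abundant member by normalized count, with a mean of 33.2, was at 0.20 (-0.29 to 0.69).

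The kinetochore genes were not called in either direction. Of 7 genes, 5 had a value below 0, from -0.13 for Cenpf to -0.30 for Spc24, and Spc25 and Cenpa, the centromeric histone H3 variant, were at 0.04 and 0.22. The 4 subunits of the NDC80 complex, which ties microtubules to the kinetochore, had values of -0.26 (Ndc80), -0.18 (Nuf2), -0.30 (Spc24) and 0.04 (Spc25). Cenpe, a kinetochore motor, was at -0.30 (adjusted p = 0.23 from edgeR). Cenpe and Cenpa each passed the threshold when 1 library was left out. Without Ahr+/+ replicate 1, Cenpe was at -0.46 (adjusted p = 0.036, edgeR), and without Ahr+/+ replicate 2, Cenpa was at 0.36 (adjusted p = 0.023, edgeR).

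The 7 genes of spindle motors and assembly lay between -0.21 for Kif11 (Eg5, the motor that pushes the spindle poles apart) and 0.24 for Ckap2, a microtubule-associated protein. Ckap2 was higher in all 3 Ahr-/- libraries, at an adjusted p of 0.13 (edgeR). Tpx2, Hmmr, Kif2c and Nusap1, which act in spindle assembly and microtubule turnover, had values from -0.14 to -0.05, and Dlgap5 had 0.15.

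Mki67 and Top2a, a proliferation marker that coats mitotic chromosomes and the topoisomerase that untangles them, were among the most abundant members. Top2a had 823.7, 1266 and 1183 normalized counts in the Ahr+/+ and 1148, 1231 and 920.9 in the Ahr-/- libraries. Its log2 fold change was 0.01 (95% interval -0.29 to 0.32). Mki67 had 592.5, 1097 and 1020 against 753.4, 791.2 and 604.5.

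Ahr+/+ replicate 1 was the lowest of the 6 libraries for Mki67 and the other two Ahr+/+ libraries were the highest. With all libraries the log2 fold change of Mki67 was -0.33 (standard error 0.18, adjusted p = 0.25 from edgeR). Without Ahr+/+ replicate 1 it was -0.57 (adjusted p = 0.0018, edgeR), and leaving out any other library gave no call.

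Neither of the 2 transcription factors that drive the G2/M genes was called. Foxm1 had 458.5, 534.3 and 466.1 normalized counts in the Ahr+/+ and 461.7, 481.3 and 462.3 in the Ahr-/- libraries, a log2 fold change of -0.05 (95% interval -0.21 to 0.11). Mybl2 had 201.1, 240.5 and 211.1 against 271.2, 276.5 and 253.5. All 3 Ahr-/- libraries were above all Ahr+/+ libraries for Mybl2, but the log2 fold change of 0.30, with a standard error of 0.10, missed the threshold (adjusted p = 0.058, edgeR). It passed with library size alone (adjusted p = 0.041), with the robust fit (0.048) and without Ahr+/+ replicate 2 (0.033), all by edgeR. A processed pseudogene, Gm3320, shares 742 bases with Mybl2 at 99.7% identity.

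For the 39 members that were not called, the 95% intervals show what size of change the data leave possible. They lay within 1.25-fold in either direction for 8 members, within 1.5-fold for 30 and within 2-fold for 39. The half-width of the interval ran from 0.15 (log2) for Mad2l1 to 0.58 for Kif2c, with a median of 0.33. A fall like that of Kif23, 1.67-fold, was therefore outside the interval of at least those 30 genes.

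**Figure D3:**
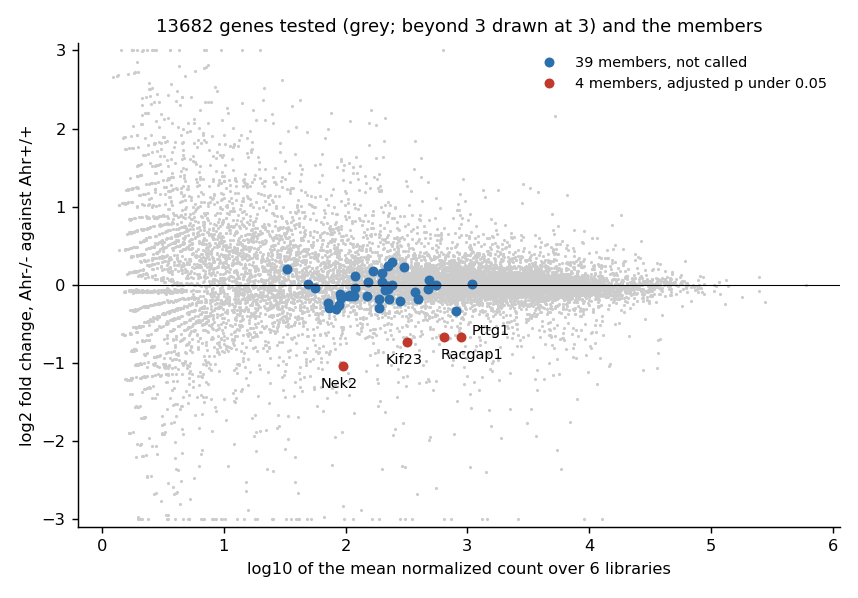
Mean normalized count over the 6 libraries (x axis, log10) against the log2 fold change in Ahr-/- cells (y axis) for the 13682 genes tested (grey) and the 43 members (blue: 39 not called, red: 4 called). The members have low to middling levels and none of the 39 in blue lies further from 0 than Mki67 at -0.33.

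The members also varied together between libraries of one genotype. Ahr+/+ replicate 1 was the lowest Ahr+/+ library for 39 of the 43 members and replicate 2 the highest for 37. Among the Ahr-/- libraries, replicate 3 was the lowest for 35 members and replicate 2 the highest for 29. The summed level of the members was 259.8, 343 and 310 CPM (counts scaled to a common total, summed over genes) in Ahr+/+ replicates 1 to 3 and 276.6, 290.4 and 245.8 CPM in Ahr-/- replicates 1 to 3. The genotypes overlapped, with means of 304.3 ± 41.9 and 270.9 ± 22.8 CPM (SD, n = 3 mice) and a ratio of 0.891.

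Over all 6 libraries the order was not the same for the 4 called members and the other 39. Within Ahr+/+ it was the same, with replicate 2 highest and replicate 1 lowest. Within Ahr-/- the sum of the 4 was highest in replicate 1 and that of the 39 in replicate 2, with replicate 3 lowest for both. The summed level of the 39 was 202.2, 275.2 and 247.8 CPM in the Ahr+/+ and 236.4, 250.8 and 209.7 CPM in the Ahr-/- libraries, so that Ahr+/+ replicate 1 was the lowest of the 6. The summed level of Pttg1, Kif23, Racgap1 and Nek2 was 57.6, 67.7 and 62.2 CPM against 40.1, 39.6 and 36.1 CPM. Ahr+/+ replicate 1 thus had less of the 39 genes than Ahr-/- replicate 2, and more of each of the 4 (362.3 against 250.2 normalized counts for Kif23 and 102 against 65.4 for Nek2). The 4 were picked by their difference, so the separation of their sum and its order across genotypes are a description.

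Markers of myeloid and granulocyte precursors (Mpo, Elane, Prtn3, Ctsg, Ms4a3 and Fcnb), which are dividing cells, ranked the libraries of each genotype in the same order as the summed members. Their sum was 2.17, 9.48 and 6.87 CPM in the Ahr+/+ and 5.85, 11.9 and 3.61 CPM in the Ahr-/- libraries. None of the 6 was called between genotypes, and all 6 had a log2 fold change above 0. The same order held for markers of neutrophils and monocytes and of NK cells, which need not divide. It did not hold for the B-cell, plasma cell, germinal centre, erythroid, T-cell and dendritic cell lists. The T-cell markers, for one, summed to 162.8, 170 and 158.8 CPM in the Ahr+/+ and 161.9, 172.3 and 186.5 CPM in the Ahr-/- libraries. The 7 detected neutrophil and monocyte markers summed to 6.01, 16.2 and 10.3 CPM in the Ahr+/+ and 16.7, 24.6 and 8.54 CPM in the Ahr-/- libraries, with none called, and the 7 NK-cell markers to 9.4, 12.1 and 10.9 CPM against 16.1, 19.2 and 12.4 CPM. The 4 globin genes on the erythroid list were listed at 0 in all libraries, and how reads of such duplicated genes were counted is not given in the sources used here. Other erythroid genes were detected at low levels, among them Ermap, Slc4a1, Epor and Klf1 with mean normalized counts of 63.9, 15.6, 14.7 and 11.8, and none was called. The erythroid sum of 328 to 375.5 CPM was nearly all Tfrc, which activated B cells also express. The part of these other cells in the levels of the members was not tested.

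**Figure D4:**
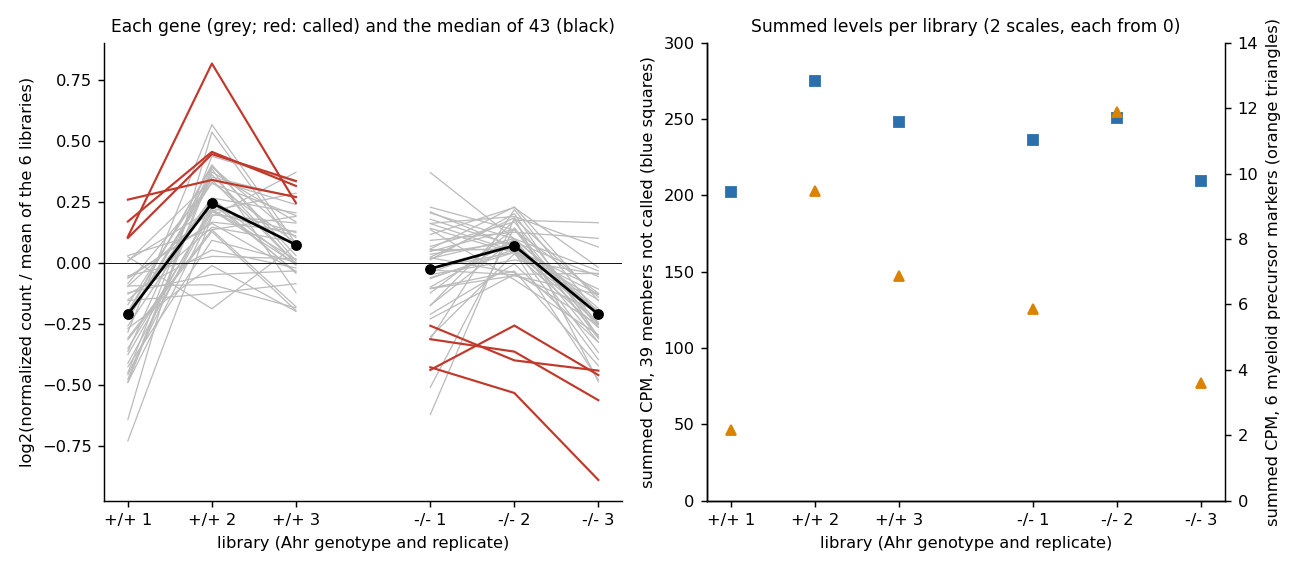
Left, log2 of the normalized count of each gene over its mean of the 6 libraries (y axis) per library (x axis), each line tracing 1 gene (red: 4 called, grey: 39 not called, black: median of 43). Right, summed CPM per library of the 39 members not called (blue squares, left axis) and of the 6 myeloid precursor markers (orange triangles, right axis), where Ahr+/+ replicate 1 and Ahr-/- replicate 3 are the lowest of their genotype in both.

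Of 8 plasma cell markers, 2 were lower in Ahr-/- libraries, as the 4 members were, and 3 were higher. Igj, the J chain, had 6535, 11990 and 10440 normalized counts against 5406, 5610 and 4278, and Prdm1, encoding Blimp-1, had 179.7, 235.4 and 229.1 against 145.9, 148.6 and 118.5. Both were called (log2 fold change -0.92 and -0.64, adjusted p = 0.0021 and 0.0058 from edgeR), although Igj was not called with the robust fit, and the markers that were higher were Xbp1, Irf4 and Slamf7. Of the germinal centre markers, Mef2b had a log2 fold change of -2.33, Gcsam of -3.06 and S1pr2 of -0.995 (adjusted p = 4.7e-08, 0.00033 and 0.0082 from edgeR). For each of these the 3 libraries of one genotype did not overlap those of the other. Markers of plasmacytoid and conventional dendritic cells were mostly higher in Ahr-/- libraries (8 of 10 and 5 of 9 called higher, 1 lower in each, with the calls of Cd300c, Ccr9 and Clec10a lost in 3, 1 and 1 of 6 fits with 1 library left out at adjusted p up to 0.077, 0.055 and 0.053 by edgeR, and that of Cd300c also by DESeq2), as were 3 of 7 NK-cell markers, of which Ncr1 and Klrb1c lost their call in 5 and 4 of 6 fits with 1 library left out (adjusted p up to 0.33 and 0.12, edgeR), and Ncr1 also with the replicate block (0.072, edgeR) and by DESeq2 (0.17). Mean normalized counts ran from 8.15 (Cd300c) to 6109 (Tcf4) on the plasmacytoid and from 9.36 (Batf3) to 9115 (Ccr7) on the conventional list. Which cells these reads came from was not tested. Of 8 T-cell markers 1 was lower (Cd3e) and 1 higher (Cd5). The shares called were 62.5% for plasma cells, 71.4% for germinal centre, 90% for plasmacytoid and 66.7% for conventional dendritic cells. They were 42.9% for NK cells and 25% for T cells, against 17.9% of all genes tested. Their part in the difference of Pttg1, Kif23, Racgap1 and Nek2 was not tested.

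The members' promoters share sequence features that the list did not use. The CHR hexamer TTTGAA was found for 24 of the 35 members with a promoter (68.6%, Kif2c with its window inside the gene included). Counted by promoter it was in 26 of 37 (70.3%), against 17.9% of all 32851 promoters and 12.1% of the 12738 promoters of tested genes. Its position was narrow. A match beginning within 50 bases of the start was present in 62.2% of the 37 member promoters (Ect2 and Prc1 have 2 overlapping ones each) and in 4.94% of all promoters. CCAAT was found for 26 members (74.3%). By promoter the share was 75.7% (28 of 37), against 37.4% of all promoters and 37.5% of those of tested genes. Both motifs were present for 21 members. GCGTG was found for 20 members (57.1%). By promoter its share was 59.5% (22 of 37), against 32.4% of all promoters but 49% of those of tested genes.

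In these windows each motif occurred both among the genes that fell and among the rest. TTTGAA was present for 2 of the 4 called members and for 22 of the 31 others with a promoter, CCAAT for 3 of 4 and 23 of 31, and GCGTG for 2 of 4 and 18 of 31. These are matches of letters in a fixed window and describe no binding. The windows of Pttg1, among the 4 called, and of Kif2c, among the others, lie inside the gene, and no comparison was tested.

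**Figure D5:**
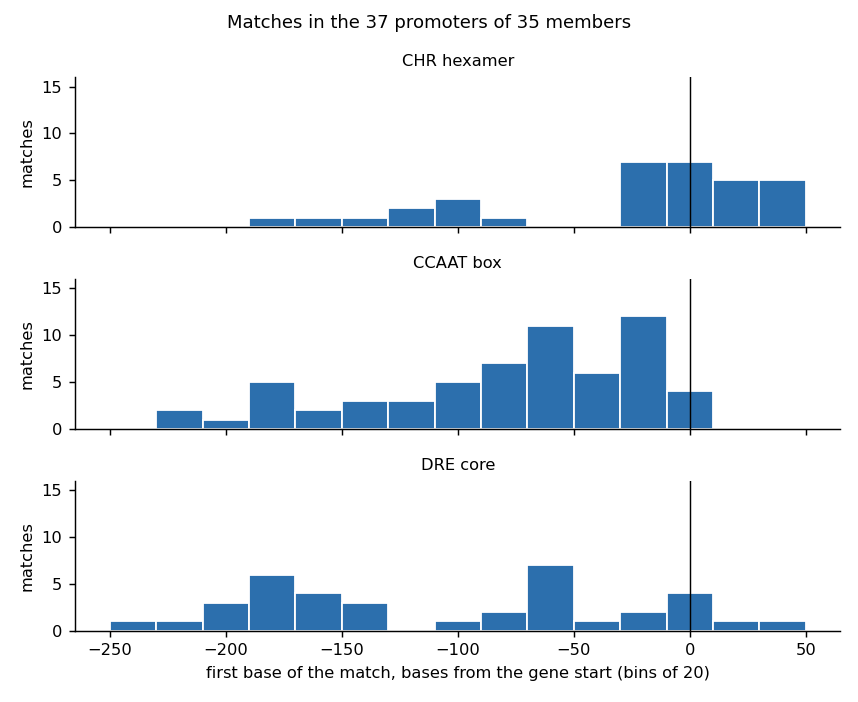
Number of matches (y axis) by the distance of their first base from the gene start (x axis, bases, negative values before the start) in the 37 promoters of 35 members, for the CHR hexamer, the CCAAT box and the DRE core. CHR matches gather around the start, with 24 of 33 within 50 bases of it, and CCAAT matches lie upstream except for 1 each in Nek2 and Ect2, 8 and 2 bases after the start.

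Calls were also few among other genes of the mitotic programme. Of 87 further mitotic genes (condensins, other kinetochore and centromere proteins, other kinesins and Cdk1 regulators), 6 were called, or 6.9%. Smc4, a condensin subunit, had a log2 fold change of -0.26, Wee1, the kinase that inhibits Cdk1, -0.26, Cenpc1 -0.18 and Tubb4b -0.17. Cdc25a, a phosphatase of the G1/S step, was higher at 0.34 and Cks2, a Cdk-binding subunit, at 0.23 (adjusted p from 0.00042 to 0.014 for these 6 genes, edgeR). Without Ahr-/- replicate 2, Cenpc1 and Cks2 were not called, and Cenpc1 was also lost without Ahr+/+ replicate 1 or 3 (adjusted p up to 0.067 for Cenpc1 and 0.068 for Cks2, edgeR). The median of the list was -0.05.

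None of 17 subunits and regulators of the APC/C, which degrades Pttg1 and the B cyclins, was called by edgeR, and 0 by DESeq2. An unadjusted p under 0.05 was found for 3 of the 17, against 4020 of the 13682 genes tested. Of 12 DREAM and MuvB genes 3 were called, or 25%, against 17.9% of all genes tested. Mybl1, encoding A-Myb, had 90.3, 96.6 and 96.6 normalized counts in the Ahr+/+ and 61.8, 39.8 and 56.5 in the Ahr-/- libraries. It was lower in all 3 Ahr-/- libraries (log2 fold change -0.88, standard error 0.18, adjusted p = 0.005 from edgeR), in the opposite direction to the value of its relative Mybl2. Lin54, the MuvB subunit that binds the CHR, was at -0.18 (adjusted p = 0.025, edgeR) and Tfdp1, the dimer partner of the E2F proteins, at 0.16 (adjusted p = 0.041, edgeR). The call of Lin54 was lost with the replicate block (adjusted p = 0.052, edgeR), by DESeq2 (0.058) and in 5 of 6 fits with 1 library left out (adjusted p 0.025 to 0.091 over the 6). That of Tfdp1 was lost in 4 of these 6 (0.026 to 0.16), while Mybl1 was called in each.

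Of 52 DNA replication genes, which mark the S phase that comes before G2, 5 were called (9.62%). Mcm6, a subunit of the replicative helicase, was higher at 0.27 and Uhrf1, which maintains DNA methylation behind the fork, at 0.40. Cdt1, which loads the helicase, was lower at -0.20, Dut at -0.16 and Rpa1 at -0.13 (adjusted p from 0.00063 to 0.035 for these 5 genes, edgeR). Rpa1 was not called in any of the 6 fits with 1 library left out (adjusted p 0.055 to 0.11, edgeR) or with library size alone (0.078), and Dut was not called without Ahr-/- replicate 2 (0.067). The median of the list was 0.00. The replication genes had a median of the mean normalized counts of 1213, against 197.6 for the mitosis and G2/M genes.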

How the data were processed

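Poly(A) RNA of the 6 cultures was made into TruSeq stranded libraries. The raw counts of reads per gene symbol deposited by the authors were used as they stand. Per the labels, the submitters' processing notes name mm10, TopHat2, HTSeq and DESeq, with strand setting and annotation not given in the sources used here. A deposited table of normalized counts and one of the authors' own comparison (means, fold changes and p-values) were not used. Genes with at least 10 counts in total were tested with edgeR 4.0.16 (R 4.3.3) by TMM scaling and the quasi-likelihood F test, with Benjamini-Hochberg adjustment over 13682 genes and a threshold of 0.05. Standard errors are the absolute log2 fold change over the square root of F, and the 95% intervals come from the same fit. Per library a normalized count is the count divided by its TMM-scaled library size relative to the mean of 6. Exact two-sided permutation tests of single genes cannot go below p = 0.1 with 3 against 3. Within a genotype the libraries differed beyond counting noise (chi-square per degree of freedom 3.8 to 8.8). P-values measure the spread between these 3 mice per genotype. The members and lists were chosen with earlier results of these data known. Values per library are given for the cyclins, Cdk1, Plk1, Aurka, Aurkb, Mki67, Top2a, Foxm1, Mybl2, the called members, the 5 with the highest mean and the 3 with the largest change; Espl1, the markers and Mybl1 were added by role. Positions are from GENCODE M21. Of the 43 members, 21 overlap another annotated gene. Near-identical copies were sought with blastn (at least 95% identity over 200 bases). DESeq2 1.42.0, other scalings, filters, a robust fit, a prior count of 2, a replicate block and leaving out each library were the alternatives. The fit was tested on simulated counts.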

Additional observations from a re-analysis of the deposited data

How the results depend on the processing

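Pttg1, Kif23, Racgap1 and Nek2 were called lower in Ahr-/- cells in each of the 14 alternatives, with log2 fold changes of -0.71 to -0.63, -0.81 to -0.66, -0.77 to -0.60 and -1.19 to -0.80. The median of the 43 members was -0.22 to 0.02 with 1 library left out, above 0 without Ahr+/+ replicate 2, and the ratio of the summed levels was 0.83 to 0.951. At an adjusted p under 0.01, 1473 genes were called, 3 of the other mitotic list, 1 of the DREAM and MuvB list and 3 of the DNA replication list. The APC/C list had 3 calls with library size alone (all higher) and 1 with at least 10 counts in at least 3 libraries. With 1 library left out, the DREAM and MuvB list had 1 to 3 calls and the DNA replication list 3 to 5. Members that were not called and lie near 0 changed sign. Ccna2 and Ccnb1 were at 3.69e-03 and 0.011 with library size alone. Aurka was at -3.84e-03 with DESeq2 size factors, -3.11e-04 without a filter and -4.58e-03 by DESeq2, and Mad2l1 at -1.73e-03 and -1.58e-03 with DESeq2 size factors and DESeq2. With each library left out in turn the log2 fold changes were Ccna2 -0.19 to 0.12, Ccnb1 -0.13 to 0.14, Cdk1 -0.056 to 0.30, Plk1 -0.27 to 0.016, Aurka -0.081 to 0.072, Aurkb -0.32 to 5.91e-03, Mad2l1 -0.032 to 0.056, Cdc20 -0.16 to 6.68e-03, Ube2c -0.39 to 0.20, Espl1 -0.15 to 0.31, Cenpf -0.33 to 0.066, Spc25 -0.036 to 0.12, Kif2c -0.32 to 0.16, Tpx2 -0.17 to 0.079, Nusap1 -0.36 to 0.048, Hmmr -0.19 to 0.041, Ect2 -0.15 to 0.035, Anln -0.19 to 0.15, Top2a -0.16 to 0.14 and Foxm1 -0.094 to 0.021, and none of these 20 genes was called in any alternative. The causes were not tested. The deviations of same-numbered libraries had correlations of -0.10, 0.19 and -0.12. The highest of any pair was 0.306, for Ahr+/+ replicate 1 with Ahr-/- replicate 3. With 3 libraries per genotype this cannot show whether same-numbered samples share a batch, and the labels give only the number. With the replicate block 2304 genes and 4 members were called and Anln was at -8.81e-03. For 30 of the 39 members not called, changes beyond 1.5-fold lay outside the 95% interval.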
